A study of Mus musculus with 19 samples.

Results

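Foxp3, Il2ra and Ctla4 were followed in single mouse thymocytes, together with CD25, the surface protein that Il2ra encodes. The 3 genes were chosen by name from the 28692 genes counted, and CD25 was chosen as the antibody of the panel of 111 that reads an Il2ra product directly. A cell was called positive for a gene when it held at least 1 unique molecular identifier (UMI, 1 captured molecule) of that gene. Among 69270 cells kept from 17 mice, 586 cells (0.846%) were positive for Foxp3, 3745 (5.41%) for Il2ra and 1755 (2.53%) for Ctla4.

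Thymi came from mice of 4 to 8 weeks and were profiled by CITE-seq, in which DNA-tagged antibodies and RNA are counted in the same droplet. Wild-type mice were C57BL/6: 3 were sorted for CD5+TCRb+ cells (replicates 1 to 3) and 2 were left unsorted (replicates 4 and 5). CD4-fated mice were AND and OT-II, which carry a transgenic T cell receptor (TCR) for MHC class II, and MHCI-/- (B2m-deficient). CD8-fated mice were F5 and OT-I, with a transgenic TCR for MHC class I, and MHCII-/- (H2-Ab1-deficient). Each of these 6 genotypes had 2 mice. AND and F5 mice also lacked Rag1, AND, F5, OT-I and OT-II thymocytes were unsorted, and both MHC-deficient genotypes were sorted for CD5+TCRb+ cells like the 3 wild-type mice. In F5 mice both TCR chains were driven by the CD2 promoter. The first experiment held wild-type replicate 1 and the first AND and F5 mice, the second held wild-type replicates 2 and 3, the MHC-deficient mice and the other AND and F5 mice, and the third held the unsorted wild-type, OT-I and OT-II mice. The MHC-deficient, OT-I and OT-II mice shared sorting and experiment with wild-type mice run beside them. The wild-type mice run beside AND and F5 were all sorted. For AND and F5, genotype therefore cannot be told apart from sorting or from Rag1 deficiency, even within an experiment. Comparisons across these sets of mice mix genotype with sorting, with Rag1 deficiency or with the experiment.

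The 19 lanes held 9893333 to 43303999 RNA UMIs, and the median cell kept held 1502 to 7177 RNA UMIs, the lowest medians being those of wild-type replicate 5. AND replicate 2 had the lowest antibody depth, with a median of 1099 antibody UMIs per cell. Pairs of lanes shared at most 15 cell barcodes. RNA of B2m stood at 46.9 and 48.6 CPM (UMI counts scaled to equal totals) in the MHCI-/- mice and at 405 to 1259 CPM elsewhere. In the MHCII-/- mice 2.20 and 2.22 of 10000 antibody UMIs were of the I-A/I-E antibody, and 23.99 to 123 were in the rest. The Vb5 antibody, which binds the beta chain of both OT receptors, took 107 to 165 of 10000 in the 4 mice that carry them and 2.46 to 20.6 in the rest. Cd3e, a chain of the TCR complex, was detected in 66.9% to 98.9% of the cells of each mouse.

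Foxp3 encodes the transcription factor that defines regulatory T (Treg) cells, which arise in the thymus mostly among CD4+ cells that meet self-antigen. CD25 is the alpha chain of the high-affinity interleukin-2 (IL-2) receptor, and IL-2 acts through STAT5 on Foxp3 in Treg precursors. CD25 also marks an early CD4-CD8- stage, before TCR alpha chain rearrangement, in cells with no link to the Treg lineage. CTLA-4 is an inhibitory receptor for CD80 and CD86 that Treg cells hold at high levels, largely inside the cell. The panel held no antibody to CTLA-4 or to the nuclear protein Foxp3, so these 2 were read as RNA alone.

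Foxp3 (ENSMUSG00000039521) lies on the plus strand of chrX:7573644-7595245 in the GRCm38 build, with 11 to 14 exons over 6 principal transcripts. Il2ra (ENSMUSG00000026770) lies on the plus strand of chr2:11642807-11693193 with 8 exons, and Ctla4 (ENSMUSG00000026011) on the plus strand of chr1:60887000-60915832 with 4 exons. The sequences below are shown because the results turn on detection of the 3 genes in the same cells, and they are the 300 bases from 250 before to 50 after each start that RefSeq annotates, on GRCm38.p6 and the plus strand. Foxp3 has 2 such starts, at windows chrX:7579426-7579725 and chrX:7580233-7580532, both inside the span of the gene above. The Il2ra window is chr2:11642542-11642841 and runs from upstream of the gene into its first exon, and the Ctla4 window is chr1:60908775-60909074, inside the annotated span. Capitals mark matches on either strand to GGAAA (the core that NFAT and Rel factors share), to TTCNNNGAA (the STAT palindrome) and to TATAAA.

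Foxp3, first window: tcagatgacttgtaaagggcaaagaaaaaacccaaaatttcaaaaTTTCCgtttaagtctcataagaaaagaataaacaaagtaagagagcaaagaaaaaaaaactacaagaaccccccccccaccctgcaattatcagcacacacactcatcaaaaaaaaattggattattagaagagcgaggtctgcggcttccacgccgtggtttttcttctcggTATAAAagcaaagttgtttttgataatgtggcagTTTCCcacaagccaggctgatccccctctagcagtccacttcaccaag

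Foxp3, second window: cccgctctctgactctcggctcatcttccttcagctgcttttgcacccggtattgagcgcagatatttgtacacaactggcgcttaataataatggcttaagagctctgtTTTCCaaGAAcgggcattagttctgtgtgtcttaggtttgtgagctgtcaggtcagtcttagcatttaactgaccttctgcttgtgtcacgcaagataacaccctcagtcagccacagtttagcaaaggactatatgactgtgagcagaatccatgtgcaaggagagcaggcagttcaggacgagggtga

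Il2ra: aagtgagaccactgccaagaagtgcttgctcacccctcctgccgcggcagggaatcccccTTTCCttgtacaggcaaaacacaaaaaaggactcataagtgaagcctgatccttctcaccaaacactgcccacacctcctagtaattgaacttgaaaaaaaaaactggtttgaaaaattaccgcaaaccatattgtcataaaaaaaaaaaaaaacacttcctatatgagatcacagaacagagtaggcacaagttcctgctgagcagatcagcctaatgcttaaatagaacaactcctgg

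Ctla4: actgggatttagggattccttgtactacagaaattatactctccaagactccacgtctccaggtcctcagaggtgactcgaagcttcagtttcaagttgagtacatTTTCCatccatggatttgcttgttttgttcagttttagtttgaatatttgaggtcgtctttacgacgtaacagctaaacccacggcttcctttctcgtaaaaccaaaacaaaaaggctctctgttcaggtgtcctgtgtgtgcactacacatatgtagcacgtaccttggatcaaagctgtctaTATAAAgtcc

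All 4 windows held GGAAA, as 61.3% of the 32851 RefSeq windows of mouse genes did. TTCNNNGAA was found in the second Foxp3 window alone, where it overlapped a GGAAA match, and in 8.3% of all windows. TATAAA was found in the first Foxp3 window and in the Ctla4 window, and in 13.6% of all windows. These matches describe letters and were not tested as binding sites.

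Cells were assigned by surface CD4, CD8a and TCRb to CD4 single-positive (SP), CD8 SP, CD4+CD8+ double-positive (DP) and CD4-CD8-TCRb-low double-negative (DN) gates, and to CD4+ or CD8a+ cells under the TCRb threshold. Foxp3 was found mostly in the CD4 SP gate, where 371 of its 586 positive cells lay among 13619 cells. A further 82 lay among 42877 DP cells, 80 among 1417 CD4+ TCRb-low cells, 27 among 1467 CD8a+ TCRb-low cells, 21 among 5819 CD8 SP cells and 2 among 1389 DN cells. Ctla4 had its largest number of positive cells in the same gate, with 738 in CD4 SP, 466 in DP, 186 in DN and the rest elsewhere, fewest of the 4 gates in CD8 SP cells. Il2ra was spread differently, with 1742 positive cells in DP, 914 in DN, 358 in CD4 SP and 93 in CD8 SP cells. This spread is pooled over mice, and the 2 OT-II mice gave 708 and 258 of the positive DP cells. They also had the highest share in DN cells (83.1% and 84.2%). Of the Foxp3-positive cells 310 held 1 UMI, 112 held 2 and 164 held 3 or more, so that many Foxp3-expressing cells could be missed at this depth.

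Foxp3 in the CD4 SP gate was highest in the wild-type and MHCI-/- mice, which carry no transgenic TCR. Of wild-type CD4 SP cells 3.38%, 4.15% and 4.84% were positive in the sorted mice and 4.51% and 2.57% in the unsorted mice, and 3.70% and 3.92% were in MHCI-/- mice. The transgenic mice were lower, at 0.732% and 0.208% in AND, 0.775% and 0.393% in OT-II and 1.25% and 0.417% in OT-I. The authors state that transgenic thymocytes with intact Rag genes might carry an endogenous TCR as well. Which TCR the CD4 SP cells of OT-I and OT-II mice carried was not tested. MHCII-/- mice, which also have diverse TCRs, had 58 and 112 CD4 SP cells, of which 0 (which allows up to 5.17%) and 1.79% were positive, and F5 mice had 6 and 19 CD4 SP cells and were not compared. The 7 wild-type and MHCI-/- mice did not overlap with the 6 AND, OT-II and OT-I mice. The share in CD8 SP cells, which should hold few Treg cells, was 0% to 1.19% over 12 mice at median depths of 3273 to 10159.5 UMIs, against 2307 to 6061.5 UMIs in the CD4 SP gate, and 0% to 0.448% after the thinning described next. No DN cell was positive for Foxp3 in the 7 mice with at least 50 such cells.

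Because cells of deeper lanes are more often positive, each cell was thinned to 1000 UMIs and the expected share of positive cells was computed. After thinning, Foxp3-positive cells made up 1.09%, 1.41% and 1.67% of CD4 SP cells in sorted wild-type, 1.87% and 1.34% in unsorted wild-type, 1.57% and 1.36% in MHCI-/-, 0.197% and 0.0373% in AND, 0.314% and 0.282% in OT-II and 0.486% and 0.342% in OT-I mice. The wild-type and MHCI-/- mice averaged 1.47 ± 0.255% (SD, n = 7) and the transgenic mice 0.276 ± 0.150% (SD, n = 6), and no transgenic mouse reached the lowest of the others. The exact two-sided permutation test over 1716 splits of the mice gave p = 0.000583, the smallest it allows, and 0.000777 after Benjamini-Hochberg adjustment over the 4 measures compared. The order held within each experiment, at 1.09% against 0.197% in the first, 1.36% to 1.67% against 0.0373% in the second and 1.34% and 1.87% against 0.282% to 0.486% in the third. In the first and second experiments this set sorted mice against unsorted, Rag1-deficient AND mice. This grouping of the mice was chosen after their values were seen, and it left out the MHCII-/- mice, whose thinned shares were 0% and 0.682%. With these 2 mice counted beside wild-type and MHCI-/- the mean of the 9 mice was 1.22 ± 0.572% (SD), the groups overlapped, and the difference was 0.945 percentage points (adjusted exact permutation p = 0.00999).

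**Figure D1:**
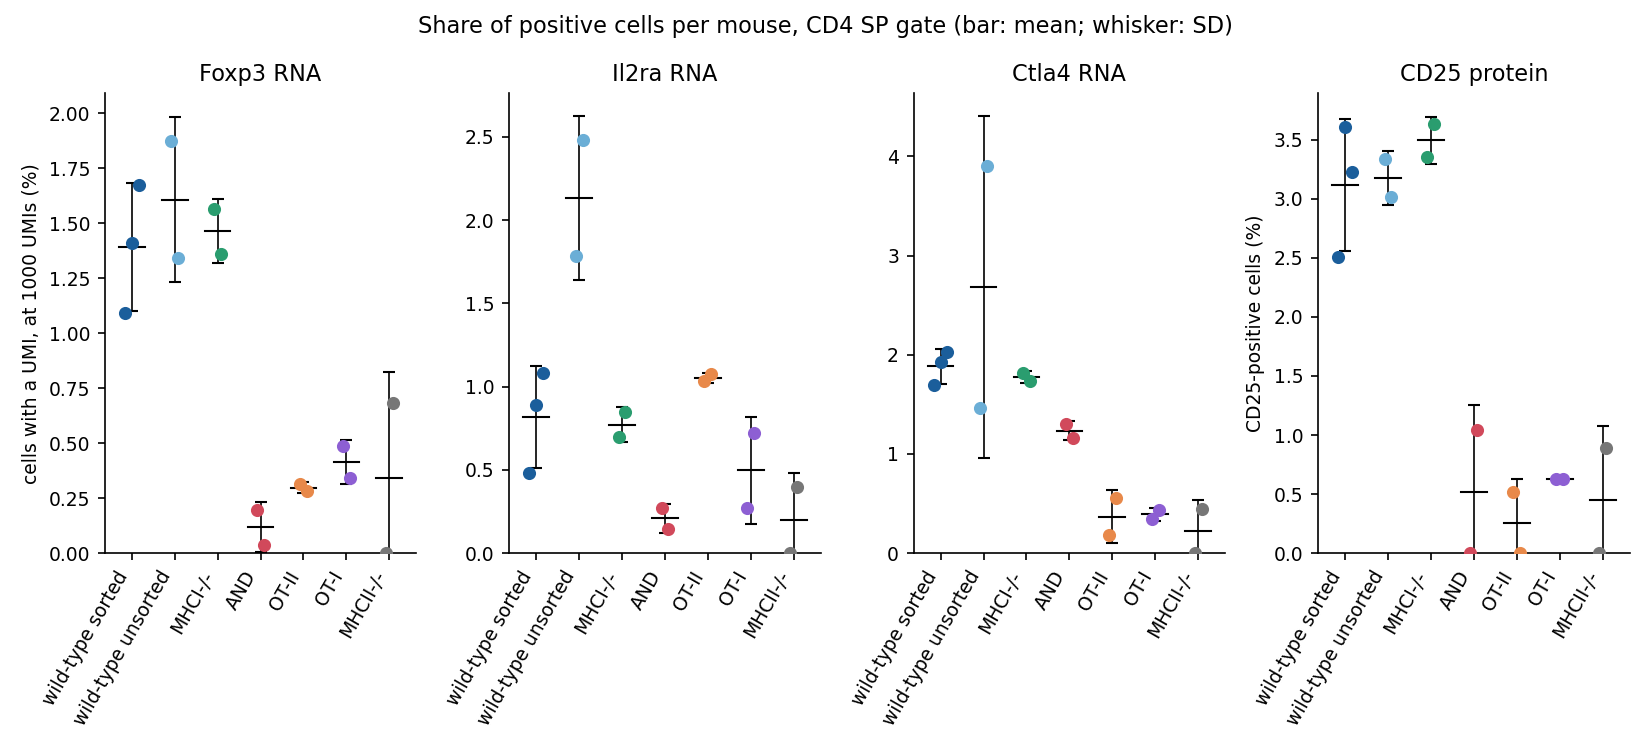
Share of CD4 SP cells (percent, vertical axes) positive for Foxp3, Il2ra and Ctla4 after thinning to 1000 RNA UMIs, and for CD25, by genotype, with 1 point per mouse, the mean as a bar and the SD as a whisker. The 7 wild-type and MHCI-/- mice lie at 1.09% to 1.87% for Foxp3 and the AND, OT-II and OT-I mice at 0.0373% to 0.486%.

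Ctla4 did not simply follow Foxp3 among the transgenic mice. It was detected in 6.38% to 7.37% of wild-type and 5.74% and 7.22% of MHCI-/- CD4 SP cells, and nearly as often in AND mice, at 4.59% and 5.52%. OT-II mice had 0.904% and 0.982% and OT-I mice 1.25% and 1.04%. Thinned, the values were 1.69%, 1.93%, 2.03%, 1.46% and 3.90% in wild-type, 1.82% and 1.73% in MHCI-/-, 1.30% and 1.17% in AND, 0.179% and 0.559% in OT-II and 0.343% and 0.438% in OT-I mice. The 2 groups of mice averaged 2.08 ± 0.824% (SD, n = 7) and 0.665 ± 0.461% (SD, n = 6) and did not overlap, with an adjusted exact permutation p of 0.000777. That call was lost with the MHCII-/- mice (0% and 0.447%) counted in the first group, at 1.00 percentage points and an adjusted exact permutation p of 0.0599. The highest value was that of wild-type replicate 5, the mouse with the shallowest cells. Across groups, the AND mice stood next to the wild-type range and above the OT-I and OT-II mice, a difference that was not tested.

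For Il2ra these groups of mice overlapped in CD4 SP cells, and for CD25 the order of the mice depended on the threshold. Il2ra was detected in 1.75%, 2.65%, 2.93%, 4.51% and 4.69% of wild-type cells, 2.22% and 3.13% of MHCI-/-, 1.20% and 0.937% of AND, 3.88% and 2.55% of OT-II and 1.67% and 2.29% of OT-I cells. In a mixed cluster led by S100a9, S100a8 and Hbb-bs 2.21% of 362 cells held an Il2ra UMI (0.676% thinned, median depth of 4000.5 UMIs). Foxp3 and Ctla4 were found in none of them. The larger CD8 SP-like cluster and the CD4 SP-like cluster lay lower for Il2ra, at 0.302% and 0.342% (0.0605% and 0.0681% thinned). How much of a low Il2ra share is background was thus not settled, and such shares are not firmly read as expression. Thinned, the wild-type and MHCI-/- mice averaged 1.18 ± 0.705% (SD, n = 7) and the transgenic mice 0.586 ± 0.413% (SD, n = 6), which overlapped (adjusted exact permutation p = 0.0932). CD25 positivity was set in each lane at the 99th percentile of its DP cells. By this measure 2.51% to 3.61% of wild-type, 3.35% and 3.64% of MHCI-/-, 0% and 1.04% of AND, 0.517% and 0% of OT-II and 0.625% in both OT-I mice were positive. Over the cells with at least 1000 RNA UMIs, the cells the test used, the groups averaged 3.17 ± 0.478% (SD, n = 7) and 0.471 ± 0.406% (SD, n = 6), with an adjusted exact permutation p of 0.000777. As for Foxp3, this grouping was chosen after the values were seen and left out the MHCII-/- mice (0% and 0.893%). With them in the first group the groups overlapped, and the difference was 2.10 percentage points (adjusted exact permutation p = 0.00999).

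The CD25 threshold itself differed between lanes, at 616 and 707 per 10000 antibody UMIs in the OT-II mice, 226 in AND replicate 1 and 15.7 to 72.2 elsewhere, since OT-II DP cells carried CD25. With 1 fixed level of 50 per 10000 the difference shrank from 2.70 to 1.46 percentage points (adjusted exact permutation p = 0.00544). Above this level were 1.38%, 2.38%, 3.03%, 2.85% and 3.02% of wild-type CD4 SP cells, 2.22% and 1.62% of MHCI-/-, 0.599% and 0.208% of AND, 1.81% and 1.38% of OT-II and 0.625% of OT-I cells in both mice. Mean CD25 in the same gate was 11.1 and 7.25 per 10000 in OT-II, 3.71 and 3.90 in AND and 2.67 and 3.06 in OT-I mice. At the fixed level OT-II mice overlapped with the wild-type and MHCI-/- mice, while AND and OT-I mice lay below them.

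Summed RNA was next compared per mouse with edgeR's quasi-likelihood test across all genes, and antibody sums across all antibodies, each genotype against the 5 wild-type mice with the experiment as a covariate. The fold change thus rests mainly on the wild-type mice of the same experiments and on sums scaled by edgeR's TMM factors, whereas the printed levels are unscaled means over all 5 wild-type mice, so that the 2 need not match. In such sums fewer positive cells and less RNA per cell cannot be told apart, and the genotype comparisons share the wild-type mice. Foxp3 stood at 15.7 ± 3.30 CPM (SD, n = 5) in wild-type CD4 SP cells. It fell in AND, to 1.21 CPM (log2 fold change -3.49 ± 0.58 SE, adjusted p = 0.00895 by edgeR), where 1.87% of all genes were called. That call was lost without AND replicate 2 (-2.49, adjusted p = 0.324). The AND mice differed from the wild-type mice of their experiments in sorting and in Rag1 as well. In OT-II it stood at 4.44 CPM (-2.16 ± 0.59 SE, adjusted p = 0.326 by edgeR, with 0.116% of genes called), and OT-I gave -1.97 ± 0.58 SE (adjusted p = 0.259, with 0.391% of genes called). MHCI-/- mice gave 0.23 ± 0.42 SE (adjusted p = 1.00, with 0.0444% of genes called).

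No genotype passed the test against wild-type for Il2ra or Ctla4 in CD4 SP cells. Ctla4 gave -2.62 ± 0.73 SE in OT-II (adjusted p = 0.352 by edgeR), -2.94 ± 0.74 SE in OT-I (0.165), -0.60 ± 0.53 SE in AND (1.00) and 0.02 ± 0.52 SE in MHCI-/- mice (1.00). Il2ra gave -0.61 ± 0.41 SE, -2.37 ± 0.48 SE, -1.43 ± 0.44 SE and -0.29 ± 0.38 SE in the same order of genotypes, with adjusted p-values from edgeR of 0.940, 0.0634, 0.177 and 1.00. Without wild-type replicate 4 both genes passed in OT-I, Il2ra at -2.77 (adjusted p = 0.0365 by edgeR) and Ctla4 at -3.64 (0.0341). The wild-type mice themselves spread widely, 17.8 ± 13.7 CPM for Il2ra and 23.1 ± 14.6 CPM for Ctla4 (SD, n = 5), with replicate 5 the highest at 39.7 and 49.1 CPM.

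CD25 protein in CD4 SP cells was called lower in AND mice, at 3.88 per 10000 antibody UMIs against 6.27 ± 1.83 (SD, n = 5) in wild-type (log2 fold change -1.14 ± 0.37 SE, adjusted p = 0.0122 by edgeR). In that comparison 57.7% of the antibodies were called, and the call was lost without AND replicate 2, the mouse with few antibody UMIs (-0.46, adjusted p = 0.336). Before TMM scaling the 2 AND mice (3.83 and 3.92) lay close under the 3 wild-type mice of their own experiments (4.18, 5.04 and 5.84), and the wild-type mice of the third experiment were the highest, at 7.76 and 8.53. OT-II gave 1.01 ± 0.37 SE (adjusted p = 0.0941), MHCI-/- gave -0.12 ± 0.34 SE (0.923) and OT-I gave -0.83 ± 0.37 SE (0.189), where 9.01%, 9.01% and 12.6% of antibodies were called.

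The CD4-fated against the CD8-fated mice, the comparison the 6 genotypes were chosen for, passed the main test for none of the 4 measures. In the CD4 SP gate F5 mice had too few cells, so that the family term took up the AND mice and the difference rested on 4 MHCI-/- and OT-II against 4 MHCII-/- and OT-I mice. Over these, Foxp3 stood at 10.1 and 4.54 CPM (log2 fold change 0.74 ± 0.57 SE, adjusted p = 0.767 by edgeR, genotype family as covariate), Il2ra at 13.1 and 4.37 CPM (1.69 ± 0.39 SE, 0.0654) and Ctla4 at 11.8 and 3.13 CPM (1.31 ± 0.61 SE, 0.478). CD25 stood at 7.21 and 3.31 per 10000 (1.06 ± 0.36 SE, 0.171). Among all features 1.2% of genes and 2.7% of antibodies were called. With the replicate number as a block Il2ra passed in this gate (1.75, adjusted p = 0.04995 by edgeR). Single mice decided these calls. Without OT-I replicate 2 Il2ra passed (2.16, adjusted p = 0.0317), without OT-II replicate 1 Ctla4 passed (2.08, 0.0244) and without MHCII-/- replicate 2 CD25 passed (1.54, 0.00451). In the DP gate (6 against 6 mice, 0.0634% of genes called) Il2ra stood at 31.8 and 5.63 CPM (1.26 ± 0.61 SE, 0.896), Ctla4 gave -0.10 ± 0.44 SE (1.00) and CD25 stood at 30.4 and 4.69 per 10000 (1.26 ± 0.65 SE, 0.276), while Foxp3 was too low to be tested. The high CD4-fated DP means of Il2ra and CD25 came from the OT-II mice. Il2ra averaged 85.2 CPM in OT-II, 7.44 in AND and 2.64 in MHCI-/- DP cells. In OT-I, F5 and MHCII-/- DP cells it averaged 7.59, 5.87 and 3.41 CPM. Mean CD25 over DP cells was 78.4, 11.6 and 2.57 per 10000 in OT-II, AND and MHCI-/- mice. The share test in the CD4 SP gate set 6 CD4-fated mice, AND included, against 4 CD8-fated mice, without regard to family. By shares the adjusted exact permutation p ran from 0.508 to 0.905 over the 2 gates. This leaves aside CD25 in the DP gate, whose share is fixed at about 1% by its own threshold and could not differ. That measure was still counted in the adjustment.

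The 3 genes met in the same cells. In CD4 SP cells of all mice 137 cells held both Foxp3 and Il2ra, 159 held Foxp3 and Ctla4, 118 held Il2ra and Ctla4, and 85 held all 3. Foxp3 stood without either of the others in 160 of its 371 cells. Ctla4 was found without Foxp3 in 579 of its 738 cells, and Il2ra without Foxp3 in 221 of its 358. CD25 exceeded 50 per 10000 in 240 CD4 SP cells, of which 147 held Foxp3, 146 held Il2ra and 40 held none of the 3 RNAs.

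Within each of the 7 wild-type and MHCI-/- mice Foxp3-positive CD4 SP cells were more often positive for the other members than Foxp3-negative cells. Thinned to 1000 UMIs, Il2ra was found in 10.5%, 15.6% and 13.9% of Foxp3-positive cells of sorted wild-type, 22.1% and 35.7% of unsorted wild-type and 10.4% and 10.8% of MHCI-/- mice, 17 ± 9.23% on average, against 0.574 ± 0.508% of negative cells (SD, n = 7). Ctla4 was found in 8.41%, 13.4%, 15.6%, 12.1%, 39.1%, 14.2% and 13.9% in the same order of mice, 16.7 ± 10.2% against 1.54 ± 0.661%. CD25 was positive in 44.4%, 55.7%, 47.9%, 52.2%, 54.5%, 55.4% and 42.9%, which is 50.4 ± 5.36% against 1.28 ± 0.387%. Wild-type replicate 5 was the highest mouse for both RNAs but not for the protein. Each difference had the same sign in 7 of 7 mice, and the exact sign-flip permutation test over 128 patterns gave p = 0.0156 for each, the smallest it allows.

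**Figure D2:**
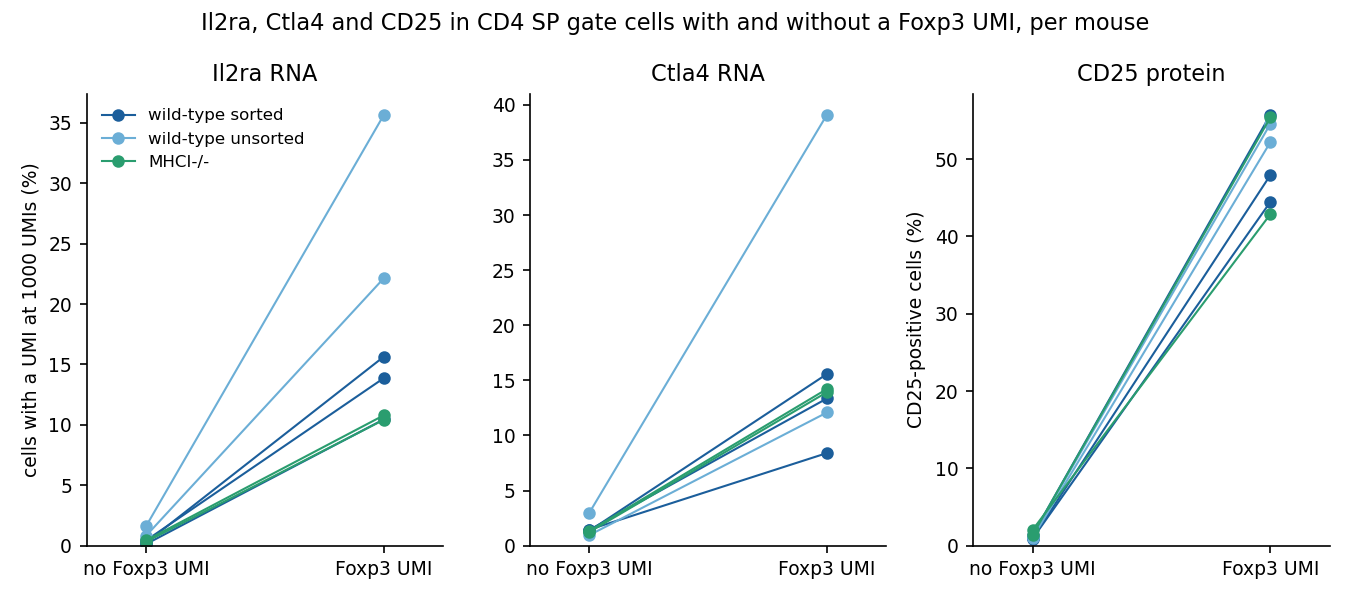
Share of CD4 SP cells without and with a Foxp3 UMI that were positive for Il2ra, Ctla4 (percent, thinned to 1000 RNA UMIs) or CD25 (percent) in each of 7 wild-type and MHCI-/- mice, a line joining the values of 1 mouse. All lines rise from the cells without to the cells with Foxp3, for CD25 from 1.28% to 50.4% on average.

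The transgenic mice had too few Foxp3-positive CD4 SP cells for this test. In AND mice 0 of 13 such cells held Il2ra and 2 held Ctla4, and none exceeded 50 per 10000 of CD25. In OT-II mice 4 of 8 held Il2ra, 3 held Ctla4 and 5 exceeded that CD25 level, and in OT-I mice 1 of 8 held Il2ra, 3 held Ctla4 and 1 exceeded it. Ctla4 without Foxp3 was found in 120 of 2463 CD4 SP cells in AND and in 9 of 1283 in OT-II mice, and Il2ra without Foxp3 in 27 and 39.

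Surface CD25 was highest where Foxp3 and Il2ra RNA were found together. In CD4 SP cells of the 7 wild-type and MHCI-/- mice the median CD25 was 96.1 per 10000 (quartiles 51.7 and 151) in 131 cells with both RNAs, 5.78 in 209 cells with Foxp3 alone of these, 6.03 in 134 cells with Il2ra but no Foxp3, and 0 in 8244 cells with neither. The medians of the 7 mice ran from 53.2 to 204 in cells with both, above those of every other class. The 4 classes had like depths, with medians of 4906, 4677, 4689.5 and 4921.5 RNA UMIs per cell.

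Il2ra UMIs tracked CD25 in the DN, DP, CD4 SP and CD8 SP gates, at levels that differed between the gates. Median CD25 at 0, 1 and at least 2 Il2ra UMIs was 6.05, 438 and 1112 per 10000 in DN, 2.86, 21.9 and 169 in DP, 1.64, 7.84 and 79.8 in CD4 SP and 0, 7.07 and 118 in CD8 SP cells. The cells were pooled over mice, and the OT-II mice gave 708 and 258 of the DP cells with Il2ra. Among mice with at least 10 such cells, DP medians ran from 2.60 to 83.4 at 1 UMI and from 37.1 to 300 at 2 or more. These are descriptions over cells, which share their mice and their depth, so that no test was made.

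**Figure D3:**
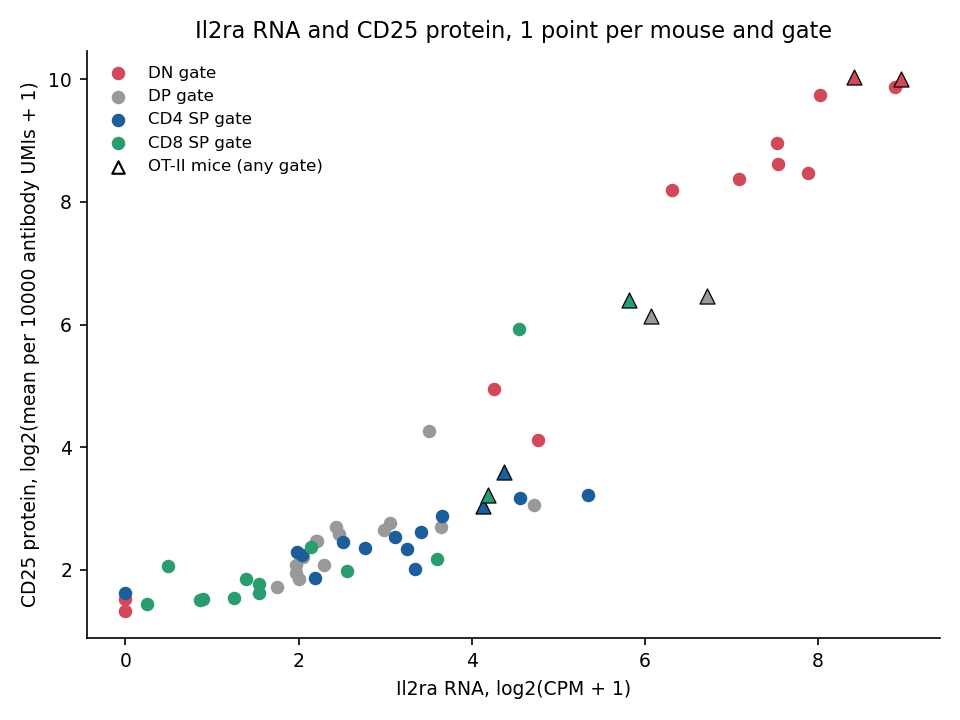
Il2ra RNA, log2(CPM + 1), against mean CD25, log2(per 10000 antibody UMIs + 1), with 1 point per mouse and gate of at least 20 cells, colored by gate and with OT-II mice as triangles. Points with more Il2ra have more CD25: the OT-II DP points (66.2 and 104 CPM, mean CD25 of 69.8 and 87.0) lie above the other DP points on both axes, while the DN points spread widely.

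On average over the mice, Foxp3, Ctla4 and CD25 were more frequent in the mature part of the CD4 SP gate, read by CD24 (heat-stable antigen, which falls as SP cells mature). Over 13 mice Foxp3-positive cells made up 1.78 ± 1.01% of CD24-low and 0.567 ± 0.465% of CD24-high cells (SD, thinned), higher in CD24-low cells in 12 of 13 mice (exact sign-flip permutation, 8192 patterns, adjusted p = 0.00195). Ctla4 stood at 2.17 ± 1.26% and 1.13 ± 0.706% (higher in 11 of 13 mice, adjusted exact permutation p = 0.00651), and CD25 at 3.28 ± 2.86% and 1.21 ± 0.954% (9 of 13 mice, 0.00651). CD25 was not higher in OT-II mice (-0.619 percentage points and 0% in both classes), in OT-I replicate 2 (-0.716) or in AND replicate 1 (0% in both), of which OT-II and AND replicate 1 had the highest thresholds, and with the fixed level of 50 the mean difference was 1.83 in place of 2.07 percentage points. Il2ra stood at 1.19 ± 0.964% and 0.755 ± 0.554% (10 of 13 mice, adjusted exact permutation p = 0.0422), a call that was lost when any of 9 single mice was left out. The Il2ra difference ran from 0.296 percentage points without wild-type replicate 4 to 0.542 without another mouse, around 0.438 with all.

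Il2ra, Ctla4 and CD25 were also far higher in summed Foxp3-positive than Foxp3-negative CD4 SP cells. Sums of Foxp3-positive and Foxp3-negative cells of the same 7 mice were compared with the mouse as a block, and 16.6% of the 9282 genes and 38.7% of the antibodies were called. Foxp3 chose the cells and is not a result here. Il2ra stood at 147, 161, 171, 342, 938, 123 and 113 CPM in the positive cells (mice in the order above) and at 1.20 to 16.2 CPM in the negative cells, a log2 fold change of 5.38 ± 0.17 SE (adjusted p = 4.52e-93 by edgeR). Ctla4 stood at 110, 136, 171, 153, 552, 149 and 150 CPM against 8.66 to 35.9 CPM (3.67 ± 0.14 SE, adjusted p = 4.62e-74). CD25 stood at 39.0, 62.9, 51.9, 75.9, 106, 56.0 and 38.7 per 10000 against 2.50 to 5.87 (3.98 ± 0.12 SE, adjusted p = 1.32e-09). In all 3 measures every positive sum exceeded every negative one. edgeR shares its dispersion estimates across features, so that these p-values do not measure the spread between the 7 mice alone.

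Of the Treg program list, 14 of 15 genes tested rose in Foxp3-positive cells and none fell, with a median log2 fold change of 2.55 against -0.04 over all genes. The gene lists were chosen with earlier results of these data known. Ikzf2 (Helios, a zinc-finger factor of Treg cells) stood at 1209 CPM against 161 CPM (2.93 ± 0.08 SE), and the costimulatory receptors Tnfrsf4 (OX40) at 674 against 124 CPM and Tnfrsf18 (GITR) at 565 against 134 CPM. Lrrc32, which holds latent TGF-b on the cell surface, stood at 70.6 against 2.39 CPM (4.91 ± 0.30 SE). Nrp1 stood at 86.7 against 9.76 CPM, and its protein CD304 at 35.7 against 4.36 per 10000 (2.97 ± 0.24 SE). CD357, the GITR protein, stood at 337 against 81.7 per 10000 (1.99 ± 0.10 SE). Icos gave -0.15 ± 0.15 SE and did not pass, while its protein CD278 was called lower in the Foxp3-positive cells.

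The IL-2 receptor and STAT5 list had 9 genes up and 1 down among 14 tested, with a median of 0.64. Il2rb and Socs2 were counted in this list and in the Treg program, so that the lists are not separate results. Il2rb, the beta chain that pairs with CD25, stood at 108 against 12 CPM (3.38 ± 0.18 SE), and the STAT5 targets Socs2 at 38.2 against 0.678 CPM and Cish at 83.1 against 10.1 CPM. The survival kinase Pim1 rose by 2.03 ± 0.13 and Stat5a by 1.23 on the log2 scale. Il7r, the receptor of interleukin-7 that shares the gamma chain, fell to 85.6 from 243 CPM (-1.41 ± 0.13 SE), and its protein CD127 gave -1.08. Il2rg, Jak1 and Jak3, the shared chain and its kinases, gave -0.10, 0.07 and -0.08 and were not called.

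The other gene lists had smaller shares called than these 2, to be read against the 16.6% of all genes called. Of the CD28 family 1 of 7 was called, Cd28 itself at -0.50 ± 0.09 SE. Of 15 factors known to act on the Foxp3 locus 4 rose, led by the NF-kB subunit Rel (1.13 ± 0.13 SE) and Gata3 (0.62 ± 0.11 SE), and the chromatin organizer Satb1 fell to 560 from 1436 CPM (-1.34 ± 0.08 SE). Of 9 genes of strong TCR signaling none rose, and Egr1 (-0.63 ± 0.18 SE) and Nfkbid (-0.89 ± 0.22 SE) fell. Of 8 DN stage genes Kit rose and Dtx1 fell. Of the 18 antibodies listed beside CD25, 10 rose and 6 fell, where 38.7% of all antibodies were called, among them the activation marker CD69 (-1.28) and CD24 (-0.89).

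The largest rises outside the lists were in Ccr6 (5.07), a chemokine receptor, Hopx (215 against 7.27 CPM, 4.99 ± 0.14 SE) and Rgs1 (4.76 ± 0.17 SE), and the largest falls included Kif11 (-4.97) and the histone genes Hist1h2ap (-3.81) and Hist1h1b (-3.52), which dividing cells use. Hbb-bs (-6.28) and Hba-a1 (-3.52) were also called but turned to 3.60 and 2.89 with DESeq2, and Hbb-bs turned to 0.94 without the unsorted wild-type replicate 4. The summed erythrocyte markers ran from 0 to 33.5 CPM (median 0) in Foxp3-positive cells of the 7 mice. In Foxp3-negative cells they ran from 0 to 775 CPM (median 0.347) over 15 mice, which include mice outside this comparison. Of the myeloid markers 2 of 4 had any UMI in Foxp3-positive cells (54.1 to 127 CPM, Itgax and Csf1r at 0), against 71.0 to 240 CPM in Foxp3-negative cells.

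**Figure D4:**
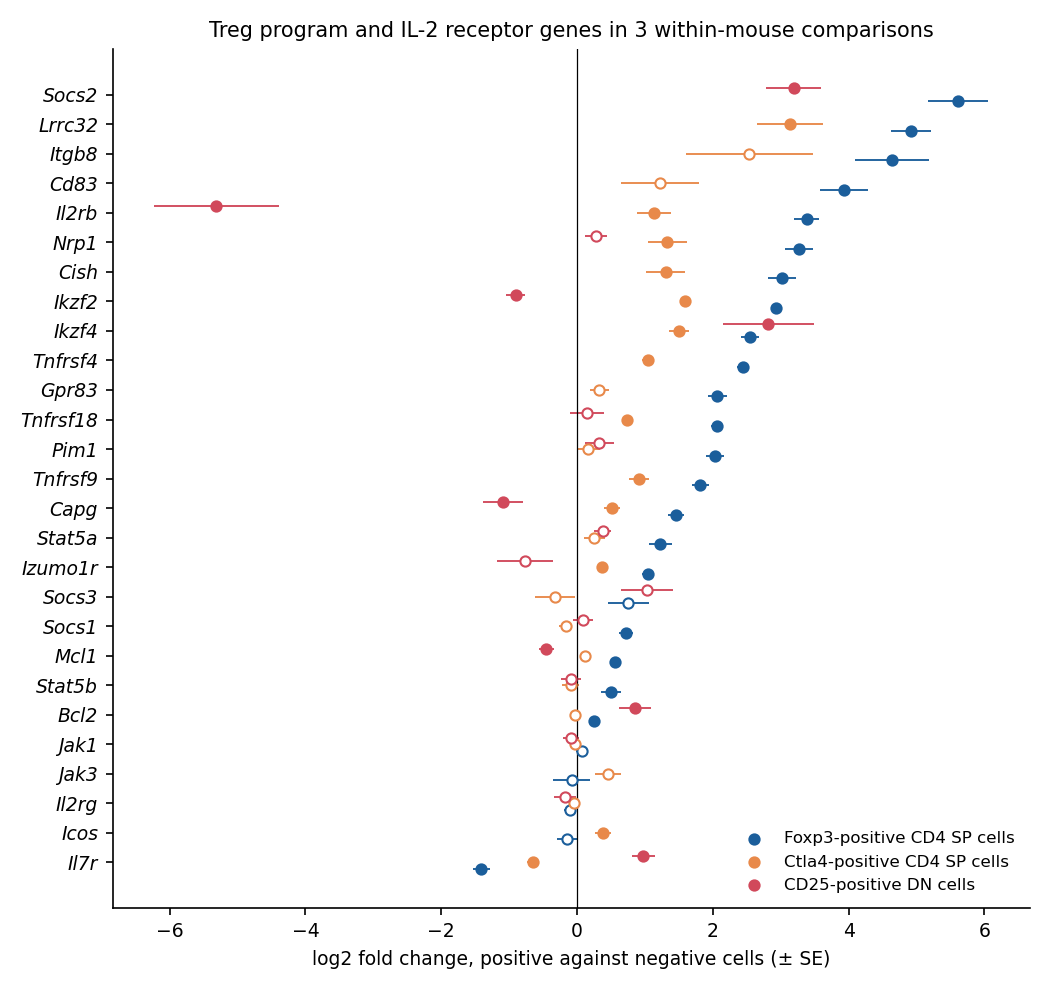
Log2 fold changes (horizontal axis, ± SE) of genes of the Treg program and of the IL-2 receptor and STAT5 lists in Foxp3-positive against Foxp3-negative CD4 SP cells (blue), Ctla4-positive against Ctla4-negative CD4 SP cells without Foxp3 (orange) and CD25-positive against CD25-negative DN cells (red). Filled points passed the test and open points did not. Il2rb rises in both CD4 SP comparisons (3.38 and 1.14) and falls in the DN cells (-5.31), and Il7r does the reverse (-1.41, -0.65 and 0.98).

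Cells with CD25 or Ctla4 but without a Foxp3 UMI shared part of this pattern. CD25-positive, Foxp3-negative CD4 SP cells were numerous enough in 2 MHCI-/- mice (23 and 35 cells), where 2.03% of genes and 16.2% of antibodies were called and no mouse could be left out. Il2ra stood at 126 and 94.8 CPM against 1.5 and 2.35 CPM in the CD25-negative cells (5.65 ± 0.63 SE, adjusted p = 3.47e-16 by edgeR) and Ctla4 at 135 and 90.5 against 10.5 and 10.4 CPM (3.27 ± 0.42 SE, adjusted p = 5.74e-12). CD25, the product of Il2ra, chose these cells, so that the Il2ra rise is bound to the choice and is not an independent result. With 2 mice these p-values rest mostly on dispersion that edgeR shares across genes. Of the Treg program 10 of 14 genes rose and none fell, including Ikzf2 (2.80 ± 0.14 SE) and Tnfrsf9 (2.95), with a median of 2.62 against -0.12 over all genes. Il2rb (2.89) and Cish (1.84) rose and Il7r (-2.83 ± 0.33 SE) fell, as did CD127 (-2.0 ± 0.22 SE). At this depth a cell without a Foxp3 UMI may still express Foxp3.

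Ctla4-positive, Foxp3-negative CD4 SP cells were compared in 9 mice, including both AND mice, where 4.36% of genes and 20.7% of antibodies were called. Il2ra stood at 0, 7.58 and 44.9 CPM in sorted wild-type, 99 and 63.2 CPM in unsorted wild-type, 26.9 and 21.2 CPM in MHCI-/- and 3.40 and 0 CPM in AND mice, 29.6 ± 33.9 CPM against 4.07 ± 3.62 CPM in Ctla4-negative cells (SD, n = 9; 2.74 ± 0.35 SE, adjusted p = 3.18e-08 by edgeR). CD25 stood at 12.8 ± 9.59 against 3.14 ± 0.871 per 10000 (1.77 ± 0.34 SE, adjusted p = 0.00532), yet in the AND mice it stood at 3.30 against 3.86 and 2.87 against 3.99. Of the Treg program 11 of 14 genes rose, including Ikzf2 (1.59 ± 0.08 SE) and Tnfrsf4 (1.04), with a median of 1.09 against -0.02. CD86, a ligand of CTLA-4, rose as RNA (1.16 ± 0.33 SE) and as protein (0.47). The AND mice were thus high in neither Il2ra nor CD25 among their Ctla4-positive cells.

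Clustering of all cells on RNA with the 3 genes left out put most Foxp3-positive cells in 1 cluster, though not in every mouse. A cluster of 2753 cells from 16 mice, led by Tnfrsf4, Tnfrsf9, Gadd45b, Xcl1 and Nr4a1, held 68.9% of Foxp3-positive, 25.2% of Ctla4-positive and 10.6% of Il2ra-positive cells. In it 14.7% of cells were positive for Foxp3 (5.74% to 17.9% over 10 mice with at least 50 cells), 14.4% for Il2ra (10.1% to 20.6%) and 16.1% for Ctla4 (2.90% to 21.1%). It held 29 of 43, 76 of 95 and 47 of 66 Foxp3-positive cells of the sorted wild-type mice and 46 of 56 of wild-type replicate 4, but 7 of 40 of wild-type replicate 5. Both AND mice had Foxp3-positive cells (11 and 3) but none in this cluster. Within the cluster, Foxp3-positive CD4 SP cells were positive for Il2ra in 17.2% against 2.61%, for Ctla4 in 16.0% against 3.59% and for CD25 in 60.6% against 8.47% of Foxp3-negative cells (5 mice, exact sign-flip permutation p = 0.0625, the smallest that 5 mice allow). The remaining Ctla4 cells were more dispersed, 12.9% of them in a cluster with mature SP markers, where 4.11% of cells were positive.

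Il2ra had a separate peak in a cluster of 1268 cells with DN markers, led by Hes1, a target of Notch. OT-II replicate 1 alone gave 46.4% of these cells, and part of the OT-II cells lay in the DP gate. The cluster held 21.1% of Il2ra-positive cells, and in it 62.2% of cells were positive for Il2ra, 6.70% for Ctla4 and none for Foxp3. Over the 4 mice with at least 50 of its cells, Il2ra was found in 56.1% to 86.4%. Its mean CD25 was 627 per 10000 (390 to 1351 over these mice, median 903), against 18.9 in the Tnfrsf4-led cluster. A further cluster of 1798 cells led by Gzma held Il2ra in 32.4% and Ctla4 in 10.2% of its cells, with a mean CD25 of 242, but its cells were deep (median of 16370.5 UMIs) and after thinning the shares were 6.87% and 0.713%, against 4.8% and 5.01% in the Tnfrsf4-led cluster. The 4 clusters named as cycling by their markers held Il2ra in 15.9%, 10.6%, 6.07% and 1.35% of their cells, and in 4.21%, 1.64%, 2.77% and 0.136% after thinning. In the second of these the share ran from 0% to 53.9% over 12 mice, with a median of 3.28%. An unnamed cluster led by the cell division genes Cenpa, Cdc20 and Ccnb2 held Il2ra in 2% (0.343% thinned). The Gzma-led cluster likewise had Hells, Mcm3 and Dut, genes of DNA synthesis, among its leading genes.

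**Figure D5:**
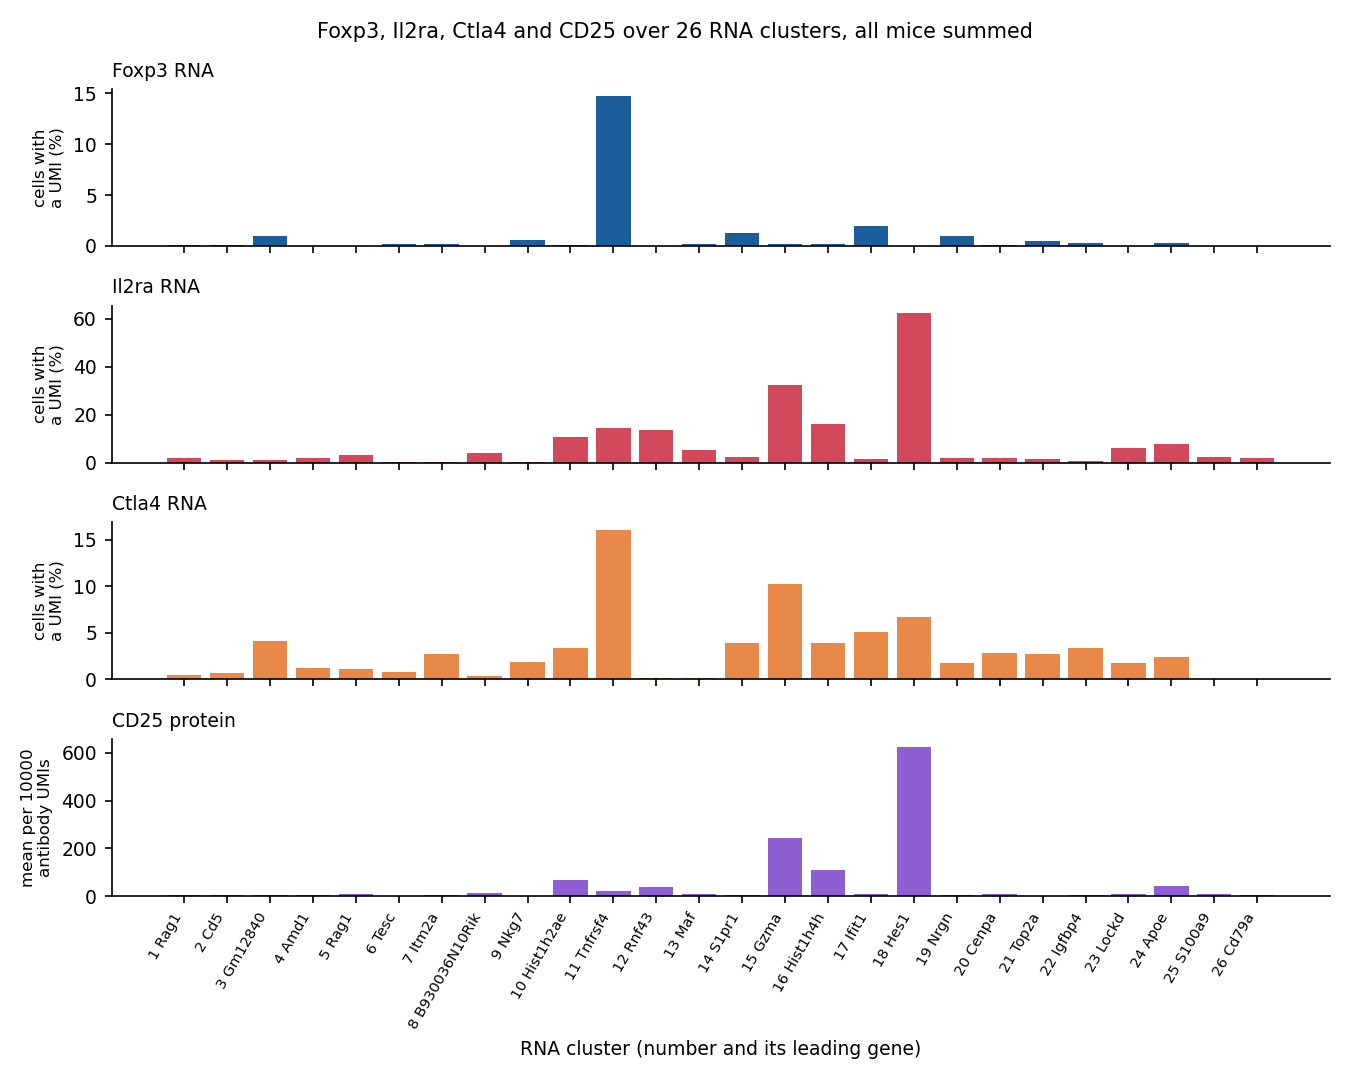
Share of cells (percent) positive for Foxp3, Il2ra and Ctla4, and mean CD25 per 10000 antibody UMIs, in each of 26 RNA clusters made without the 3 genes and labeled by number and leading gene, all mice summed. Foxp3 has 1 high cluster (14.7%, led by Tnfrsf4), where Il2ra (14.4%) and Ctla4 (16.1%) are also found. Il2ra and CD25 are highest in a cluster led by Hes1 (62.2% and 627), in which 46.4% of the cells come from OT-II replicate 1.

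The DN gate carried Il2ra and Ctla4 with almost no Foxp3. Il2ra was found in 70% and 72.6% of DN cells of unsorted wild-type, 52.2% of AND replicate 1, 83.1% and 84.2% of OT-II, 57.1% of F5 replicate 2 and 34% of OT-I replicate 2 (the 7 mice with at least 50 DN cells). Mean CD25 in the same mice was 857, 940, 332, 1044, 1032, 293 and 353 per 10000. Ctla4 was found in 20.7%, 18.8%, 5.80%, 11.1%, 9.72%, 27.7% and 4.00% of the cells, and in 0.174% to 4.25% after thinning, since DN cells were deep (medians of 5848 to 23374 UMIs). OT-II mice were highest for Il2ra and the F5 mouse was highest for Ctla4 before thinning, while wild-type replicate 5 was highest after it.

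CD25-positive DN cells were compared with CD25-negative DN cells of the same 7 mice, where 7.6% of genes were called. Because of the high OT-II thresholds the negative class of the OT-II mice still carried CD25, at 237 and 398 per 10000, against 8.30 and 11.2 in wild-type. Il2ra stood at 369 ± 192 CPM against 62.9 ± 86.9 CPM (SD, n = 7; 2.62 ± 0.39 SE, adjusted p = 0.000187 by edgeR). Since its product CD25 chose the cells, this rise is not an independent result. Ctla4 stood at 12.2, 47.3, 12.5, 11.2, 23.0, 22.3 and 5.13 CPM in the positive cells of wild-type replicates 4 and 5, AND, OT-II replicates 1 and 2, F5 and OT-I, and at 4.24, 12.7, 0, 1.55, 7.50, 21.5 and 0 CPM in the negative cells (1.42 ± 0.35 SE, adjusted p = 0.0167). It was higher in all 7 mice, by least in F5. The Ctla4 call was lost without OT-II replicate 1 (1.23, adjusted p = 0.0766), OT-II replicate 2 (1.39, 0.0585) or wild-type replicate 5 (1.30, 0.0684). With the fixed CD25 level of 50, which left 6 mice, Il2ra gave 4.91 (adjusted p = 7.22e-05 by edgeR) and Ctla4 was not called (1.34, adjusted p = 0.132).

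CD25 in DN cells went with genes of the DN stage. Of the DN stage list 5 of 10 genes rose, the pre-TCR alpha chain Ptcra (1.36 ± 0.21 SE), the Notch target Hes1 (1.30 ± 0.32 SE), Notch3 (1.11 ± 0.27 SE), Notch1 (0.75 ± 0.12 SE) and Rag2 (0.57), and Cd44, which the earliest DN cells carry, fell (-3.62 ± 0.28 SE). At the fixed level Ptcra (2.46), Hes1 (1.84), Notch1 (1.09) and Cd44 (-4.03) were called, and Notch3 (1.65) and Rag2 (1.16) were not. Of the Treg program 2 of 8 rose (Ikzf4 at 2.82 and Socs2 at 3.19) and 3 fell (Ikzf2 at -0.90, Il2rb at -5.31 and Capg at -1.09). Il7r rose here (0.98), opposite in sign to the CD4 SP cells, although that contrast was not tested. Neither Il7r (1.15) nor Capg (-1.33) was called at the fixed level. The largest falls were in the neutrophil genes Camp (-13.32), S100a8 (-11.68) and Lcn2 (-10.82), and the summed myeloid markers ran from 110 to 3312 CPM in CD25-negative and from 77.0 to 133 CPM in CD25-positive DN cells. The part of myeloid cells in the DN comparison was not tested.

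In the DP gate OT-II mice stood apart for Il2ra and CD25. Il2ra was detected in 19.5% and 15.6% of OT-II DP cells and in 0.997% to 5.00% of DP cells in the other 15 mice, the highest of which was AND replicate 1. Mean CD25 was 69.8 and 87.0 per 10000 in OT-II against 2.29 to 18.2 elsewhere. The 966 Il2ra-positive OT-II DP cells (708 and 258) had median CD25 of 99.3 and 128 per 10000 and median TCRb of 8.31 and 5.56, against TCRb of 14.1 and 10.0 in their Il2ra-negative DP cells. Of them 28.7% and 29.1% lay in the Hes1-led cluster with DN markers, against 7.96% and 10.5% of the negative cells. An unnamed cluster led by Rnf43 held more of them in OT-II replicate 1 (48.2%, and 69.0% of the negative cells) but few in replicate 2 (5.04% and 3.94%). Against wild-type, CD25 in OT-II DP cells stood at 76.6 against 5.06 per 10000 (log2 fold change 3.74 ± 0.63 SE, adjusted p = 0.00262 by edgeR, with 2.7% of antibodies called), a contrast added after the values were seen. The 2 wild-type mice of the same experiment stood at 5.76 and 8.65 per 10000 for CD25 and at 6.96 and 25.3 CPM for Il2ra, above the 3 sorted mice, whose levels pull the printed wild-type means down. The call was lost without wild-type replicate 4 (3.49, adjusted p = 0.0841). Il2ra stood at 85.2 against 8.41 CPM (2.47 ± 0.59 SE, adjusted p = 0.123, with 0.494% of genes called), and passed without wild-type replicate 5 (3.68, 0.0393).

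MHCII-/- mice had few CD4 SP cells, and most of their Foxp3-positive cells lay in other gates. Of their 66 Foxp3-positive cells 31 lay in the DP gate, 22 in the CD8a+ TCRb-low, 9 in the CD8 SP, 2 in the CD4 SP and 2 in the CD4+ TCRb-low gate. As shares of each gate in the 2 mice these were 0.564% and 0.528% of 2303 and 3411 DP cells, 4.47% and 4.88% of 179 and 287 CD8a+ TCRb-low cells and 0% and 1.79% of 58 and 112 CD4 SP cells. Over these cells the 2 mice had median CD4 of 180 and 159 and median CD8a of 365 and 489 per 10000, whereas Foxp3-positive cells of sorted wild-type and MHCI-/- mice had median CD4 of 637 to 729 and CD8a of 8.77 to 17. Foxp3-negative cells of the Tnfrsf4-led cluster in the same MHCII-/- mice also had high CD8a (480 and 497), with CD4 of 403 and 408. The Tnfrsf4-led cluster held 21 of 25 and 26 of 41 of them. Among MHCII-/- DP cells with an Il2ra UMI (25 and 34 cells) Foxp3 was found in 36.0% and 20.6% and Ctla4 in 40.0% and 29.4%, against 0.176% and 0.326% and 1.23% and 0.681% of DP cells without one. Cells with an Il2ra UMI were deeper, with medians of 6050 and 6822 UMIs against 3715.5 and 4502.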

How the data were processed

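CITE-seq was done on thymocytes of 17 mice in 19 lanes with 111 antibodies. The authors aligned the reads to mm10 with Cell Ranger 3.1.0 and deposited raw UMI counts per gene or antibody and cell barcode, without normalization. Replicate mice were not pooled.

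Here, barcodes were kept with at least 200 genes, at most 15% mitochondrial UMIs, 1000 to 10000 antibody UMIs and at least 70 antibodies (72054 of 85389), and doublets scored against simulated ones were removed at 0.8% per 1000 barcodes, which left 69270 cells. Gates used Otsu thresholds on CD4, CD8a and TCRb within each experiment. TCRb had no second mode in the second experiment, so that its TCRb threshold is arbitrary. CD25 is given per 10000 antibody UMIs and was called positive over the 99th percentile of the DP cells of its lane. Clusters came from the Leiden method (leidenalg 0.10.2) on 2000 genes, 30 principal components and 20 neighbors, without the 3 genes.

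Sums of UMIs per mouse (at least 20 cells) were tested with edgeR 4.0.16 in R 4.3.3 (quasi-likelihood, TMM, its low-count filter, Benjamini-Hochberg adjustment over all genes or antibodies, called at an adjusted p under 0.05), with DESeq2 1.42.0 as an alternative. The fits were tested on simulated counts, where false calls exceeded the threshold in the DN comparison but not in the 2 other fits simulated. Standard errors were back-calculated from the F statistics. Shares per mouse (at least 50 cells) were compared by exact two-sided permutation tests over mice. For a share of 0 the limit printed is 3 counts of the total, a counting error alone. RefSeq promoter windows matched all 3 genes.

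Genes were named as members, as members of lists, or as the 10 largest rises and 5 largest falls among called genes at 20 CPM or more in either class. The members and lists were chosen with earlier results of these data known. The polyclonal grouping, the OT-II comparison in DP cells, the comparison within 1 cluster and the fixed CD25 level of 50 were added after seeing the data. The count of MHCII-/- mice beside the wild-type was added likewise. Replicate numbers name different mice, go with the experiment for AND, F5 and wild-type mice, and were not taken as pairs in the main fits. Within each genotype of the third experiment they also went with RNA depth.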

Additional observations from a re-analysis of the deposited data

Results flagged for a closer look

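In the CD4 SP gate the sign of the Il2ra difference by CD24 was opposite to that of several genotypes in OT-I mice, where CD24-low cells were lower than CD24-high cells in both mice (by -0.813 and -0.0149 percentage points, mean -0.414), while both MHCI-/- mice (0.740 and 1.05), both OT-II mice (0.223 and 0.386) and all wild-type mice were higher in CD24-low cells. AND mice gave -0.207 and 0.0955. The OT-I shares themselves were 0.256% of 54 cells against 0.271% and 0% of 52 cells against 0.813%, so that no direction is read from them. Ctla4 did the same in AND mice, with -0.495 and -0.109 percentage points (mean -0.302), against 1.91 and 2.27 in OT-I and 1.23 and 1.75 in MHCI-/- mice. Neither difference between genotypes was tested, and each rests on 2 mice.

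CD4+CD8a- cells under the TCRb threshold lay outside the comparisons, yet 78 of 1246 such cells in the 9 mice with at least 50 of them held Foxp3 (6.26%). Sorted wild-type mice had 3.94%, 6.95% and 13.4%, MHCI-/- mice 13.4% and 11.2%, MHCII-/- mice 1.41% and 0.917%, and both OT-II mice 0% (which allows 3.13% and 4.48%). In the OT-II mice 76.0% and 59.7% of these cells held Il2ra instead. MHCII-/- mice had 64 Foxp3-positive cells outside the CD4 SP gate and 2 inside it.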

How the results depend on the processing

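The alternatives changed the normalization, the test, the filters on genes and cells, the doublets, the gates, the thinning, the CD25 threshold and the mice. For the main results 1009 of 1096 values kept direction and side of the threshold, 26 reversed, 35 gained a call and 26 lost one. Counting the MHCII-/- mice as polyclonal, added after seeing the data, took Ctla4 against the transgenic mice to 1.00 percentage points, no longer called. Every co-detection difference kept its sign, but at least 2 Foxp3 UMIs left 4 mice (Il2ra 17.96, Ctla4 14.62 and CD25 61.2 percentage points, exact permutation p = 0.125, the smallest possible) and the Tnfrsf4-led cluster 5 (14.6, 12.4 and 52.1). The Il2ra difference by CD24 lost its call without thinning (0.651), without protein filters (0.228) and with doublets kept (0.363), and the small Ctla4 lineage difference in DP cells turned to -0.00466 with thinning to 2000 UMIs and to -0.159 without thinning.

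Without the low-count filter these became calls: Il2ra by lineage in DP (1.23) and CD4 SP cells (1.69), Ctla4 by lineage in CD4 SP cells (1.33), Il2ra in AND (-1.43), Foxp3 and Ctla4 in OT-II (-2.16 and -2.61), Foxp3, Il2ra and Ctla4 in OT-I (-1.98, -2.37 and -2.93), and Foxp3, Il2ra and Ctla4 in OT-II DP cells (-3.85, 2.46 and -1.65). DESeq2 called Il2ra by lineage in CD4 SP cells (1.67), Il2ra and Ctla4 in OT-I (-2.36 and -3.01) and Il2ra in OT-II DP cells (2.47), and turned CD25 in MHCI-/- to 0.032, Hbb-bs to 3.60 in Foxp3-positive and 2.93 in Ctla4-positive cells, and Hba-a1 to 2.89. Keeping doublets called Il2ra by lineage in CD4 SP cells (1.79) and CD25 in OT-II (1.45) and turned Ctla4 by lineage in DP cells to 0.041. Without the experiment covariate CD25 in OT-II (1.29) and Il2ra in OT-II DP cells (3.31) passed, and Il2ra in OT-II (0.16) and Ctla4 in MHCI-/- (-0.28) turned. Without protein filters Il2ra in OT-II turned to 0.019. Raised gates called CD25 by lineage in CD4 SP cells (1.61) and in OT-I (-1.03) and turned Il2ra and CD25 in MHCI-/- to 0.10 and 0.20, and lowered gates turned CD25 by lineage to -0.13. A lower CD25 percentile turned CD62L in CD25-positive CD4 SP cells to -0.034, and the fixed CD25 level left Ctla4 in CD25-positive DN cells at 1.34, not called.

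With the replicate number as a block (paired numbers), Il2ra by lineage in CD4 SP cells passed at 1.75 (adjusted p = 0.04995 by edgeR) and 274 genes were called in place of 124. Same-numbered mice deviated together by correlations of 0.0340 to 0.694 in DP and 0.0291 and 0.516 in CD4 SP cells, highest for the OT mice in both gates. In the third experiment B2m stood at 413, 652 and 532 CPM in wild-type replicate 4 and the first OT-I and OT-II mice. It stood at 953, 1259 and 1070 CPM in wild-type replicate 5 and the second OT-I and OT-II mice. The experiment covariate does not take up such a split. The numbers were still not taken as pairs in the main fits.

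Leaving out single mice gave ranges of -0.0600 to 0.0578 for the Ctla4 lineage share in DP cells, 0.296 to 0.542 for the Il2ra share by CD24, -0.36 to 0.080 for Ctla4 by lineage in DP cells, and 1.22 to 2.16, 0.96 to 2.08 and 0.82 to 1.54 for Il2ra, Ctla4 and CD25 by lineage in CD4 SP cells. Against wild-type the ranges were -5.31 to -2.49 (Foxp3) and -1.69 to -0.46 (CD25) in AND, 0.57 to 1.34 (CD25) in OT-II, -0.043 to 0.15 (Ctla4) and -0.28 to 0.030 (CD25) in MHCI-/-, and -3.04 to -1.66 (Il2ra), -3.64 to -1.88 (Ctla4) and -1.06 to -0.63 (CD25) in OT-I. They were 1.78 to 3.68 (Il2ra) and 3.49 to 4.05 (CD25) in OT-II DP cells and 1.23 to 2.08 for Ctla4 in CD25-positive DN cells. Hbb-bs ran from -6.33 to 0.94 in Foxp3-positive and from -5.65 to 0.29 in Ctla4-positive cells, both highest without the unsorted wild-type replicate 4. The causes of these changes were not tested.

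Numbers of called genes moved by over 1.5 times with the setting: 1008 to 1690 around 1539 for Foxp3, 67 to 960 around 196 for CD25 in CD4 SP cells, 191 to 501 around 412 for Ctla4, 439 to 1121 around 645 in DN cells, 22 to 491 around 124 and 0 to 262 around 7 by lineage in CD4 SP and DP cells, 177 to 622 around 210 in AND, 8 to 265 around 13 in OT-II, 41 to 327 around 44 in OT-I, 4 to 23 around 5 in MHCI-/- and 37 to 426 around 58 in OT-II DP cells. Leaving out single mice took them to 388 in DN cells (without OT-II replicate 1), 250 for Ctla4 (without MHCI-/- replicate 2), 11 in AND (without AND replicate 2), 32 by lineage in CD4 SP cells (without MHCI-/- replicate 1), 1 to 16 in DP cells (without MHCII-/- replicate 2 and AND replicate 1), 14 in OT-I (without OT-I replicate 1), 3 in OT-II CD4 SP and 4 in OT-II DP cells (both without OT-II replicate 1), and 0 by edgeR in MHCI-/- (without its replicate 1 or sorted wild-type replicate 2). Depth limits all 3 genes, since 310 of 586 Foxp3-positive, 2061 of 3745 Il2ra-positive and 1319 of 1755 Ctla4-positive cells rest on 1 UMI.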

Other observations

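Over the 26 RNA clusters, the genes whose levels, log2(CPM + 1), were most like Foxp3 were Penk (Pearson r = 0.907), Rln3 (0.892), Arhgap20 (0.869), 1110032F04Rik (0.839) and Lrrc32 (0.821). Ikzf4 (0.660) was nearest to Ctla4 and AI314180 (0.839) and Epb41l4b (0.827) were nearest to Il2ra. Among the members, Foxp3 and Ctla4 gave 0.648, Il2ra and Ctla4 0.369 and Foxp3 and Il2ra 0.0461. These describe clusters of unequal depth that share mice, and have no p.

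In DN cells Ctla4 (thinned) was found in 1.89% of cells over 50 per 10000 of CD25 and 0.333% of the others in wild-type replicate 4, and in 5.1% and 0.692% in wild-type replicate 5. AND replicate 1 had 0.841% and 0%, OT-II mice 1.02% and 1.92% against 0% in both, and OT-I replicate 2 0.348% and 0%. F5 replicate 2, whose transgenic TCR is driven by the CD2 promoter, had 2.21% and 2.16%.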
